A study of Mus musculus with 12 samples.

Results

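Transcripts of 37 genes that act in DNA replication and mitosis were followed in mouse embryonic stem (ES) cells and the embryoid bodies made from them. The genes were taken by symbol from a fixed list of 37 and matched to the 32285 gene IDs of the count table. All 37 were found, and all 37 passed the filter on low counts. They are 16 S-phase genes, which license, start or feed DNA synthesis, 19 mitotic genes and 2 cyclins of G1, Ccnd1 and Ccne1.

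By the labels, the cells were the mouse ES line E14Tg2a.IV. They were either wild type (WT), with Smad2 and Smad3 both knocked out (S2/3DKO), or with Smad4 knocked out (S4KO). Each genotype was collected undifferentiated (D0) and as embryoid bodies 4 days after withdrawal of LIF, the cytokine that holds mouse ES cells in self-renewal (D4). This gives 6 groups of 2 libraries, 12 in all. The labels name 1 line per genotype and do not say that the 2 libraries of a group came from separate cultures, so p-values measure the spread between these libraries, which may be technical. SMAD2 and SMAD3 are the receptor-activated factors of the TGF-beta and Nodal branch of signalling. SMAD4 is the partner with which they enter the nucleus, and it also serves the BMP branch.

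Transcripts of the targeted genes were still counted in the knockout lines. Smad2 stood at 48.3 and 46.7 CPM (counts scaled to library size with TMM factors) in S2/3DKO at D4 against 96.9 and 69.1 in WT, and Smad3 at 31.3 and 28.8 against 47.7 and 50.2. Smad4 was at 121 and 144 CPM in S4KO at D4 against 136 and 123 in WT. At D0 the targeted transcripts were on average above WT. Smad2 was then at 37.8 and 47.7 CPM in S2/3DKO against 29.5 and 38.8, and Smad3 at 19.8 and 13.1 against 9.68 and 11.5. Smad4 at D0 was at 100 and 79.6 CPM in S4KO against 49.6 and 52.3. The deleted part of each gene is not given in the sources used here, so these totals do not check the labels, and the groups are called by their labels throughout. The lines also differed elsewhere. Hprt was counted at 169 to 212 CPM in S4KO and below 0.73 CPM in the other lines, and Xist at 33.2 to 115 CPM in S2/3DKO against at most 9.64 in the others. The Y-linked Ddx3y and Eif2s3y were at 1.39 CPM or less in every S2/3DKO library and at 16.3 to 85.7 CPM in the other lines. The labels give all lines as E14Tg2a.IV, and whether they share that parent was not tested. The part of such line differences in the values below was not tested.

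The library totals ran from 31566376 to 55806858 counts, and every member had at least 857 counts in every library. The 2 WT libraries of D0 stood apart from the other 10. Their TMM factors were 0.837 and 0.901 against 0.975 to 1.09 elsewhere, and ribosomal protein genes took 13.9% and 10.1% of their counts against 4.73% to 7.32%. S2/3DKO D0 replicate 2 differed too, with 6.74% of its counts from mitochondrial genes against 1.87% to 3.93% elsewhere. Pluripotency markers (8 genes, summed) were at 8696 and 7686 CPM in WT D0, and at 3348 to 5608 in the knockouts at D0. At D4 they were at 1229 and 889 in S2/3DKO, 1524 and 2152 in WT and 2851 and 1711 in S4KO. Because these are bulk samples, fewer cells of a type and less RNA per cell cannot be told apart.

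As background, replication origins are licensed in G1 when CDC6 and CDT1 load the MCM2-7 ring, the replicative helicase, onto DNA. In S phase CDC45 and the GINS complex turn the ring into the active helicase, PCNA clamps the polymerases, and ribonucleotide reductase and thymidylate synthase supply nucleotides. Many of these genes are driven by E2F factors, which cyclin D and cyclin E kinases release from the RB proteins. Mitotic genes (cyclin B, CDK1, the Aurora and Polo kinases, the spindle checkpoint, the anaphase-promoting complex, kinetochore proteins and kinesins) peak later and are widely controlled through CHR elements. Mouse ES cells cycle fast with a short G1, and the cycle lengthens as they differentiate.

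The promoters divide in part along the same line between S-phase and mitotic genes, and 6 that hold a motif are printed as examples. Each is the 200 bases before the RefSeq start site (GRCm38.p6), written 5′ to 3′ on the gene's own strand. Capitals mark the E2F motif and the CHR element on either strand, and where 2 matches overlap the capitals run through both.
Mcm5 (chr8:75109309-75109508, plus strand): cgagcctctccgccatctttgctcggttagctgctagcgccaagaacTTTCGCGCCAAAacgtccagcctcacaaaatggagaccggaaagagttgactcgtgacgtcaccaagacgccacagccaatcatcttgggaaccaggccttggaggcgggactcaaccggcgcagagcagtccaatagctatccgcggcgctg
Mcm6 (chr1:128359706-128359905, minus strand): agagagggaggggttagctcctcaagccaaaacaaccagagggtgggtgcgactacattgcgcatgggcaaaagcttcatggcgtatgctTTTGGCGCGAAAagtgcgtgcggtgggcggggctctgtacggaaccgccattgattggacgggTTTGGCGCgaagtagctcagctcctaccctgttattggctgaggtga
Mcm7 (chr5:138171884-138172083, minus strand): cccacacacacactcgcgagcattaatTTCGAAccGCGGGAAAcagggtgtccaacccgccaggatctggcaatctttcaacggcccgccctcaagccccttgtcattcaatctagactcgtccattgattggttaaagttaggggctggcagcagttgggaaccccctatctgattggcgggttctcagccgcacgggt
Cdc20 (chr4:118437344-118437543, minus strand): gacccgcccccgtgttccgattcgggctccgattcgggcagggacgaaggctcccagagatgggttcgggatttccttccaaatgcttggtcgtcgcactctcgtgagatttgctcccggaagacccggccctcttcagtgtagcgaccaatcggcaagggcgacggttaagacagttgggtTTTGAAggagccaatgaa
Cdk1 (chr10:69352913-69353112, minus strand): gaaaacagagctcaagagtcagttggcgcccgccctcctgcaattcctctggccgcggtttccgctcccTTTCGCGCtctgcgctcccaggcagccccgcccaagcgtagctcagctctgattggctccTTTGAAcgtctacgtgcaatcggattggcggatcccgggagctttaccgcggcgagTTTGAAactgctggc
Ube2c (chr2:164769729-164769928, plus strand): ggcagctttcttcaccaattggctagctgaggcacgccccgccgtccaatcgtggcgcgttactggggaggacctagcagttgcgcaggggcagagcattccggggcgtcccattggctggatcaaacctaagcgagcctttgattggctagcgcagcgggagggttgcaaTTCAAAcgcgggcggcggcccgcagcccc

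Mcm5, Mcm6 and Mcm7 each carry an E2F motif, which in Mcm5 and in Mcm6 is a pair of overlapping matches on opposite strands, and Mcm6 has a further one nearer the start. Cdc20 and Ube2c carry a CHR element close to the start. Cdk1 holds an E2F motif and a pair of CHR elements. In Mcm7 a CHR element lies beside the E2F motif. Mcm7 has another RefSeq start, and the 300-base window around it (chr5:138171217-138171516) holds neither motif. The printed promoters do not stand for all members called below. The 300-base windows of Pcna and Mcm2 hold no E2F motif, and that of Mcm2 holds a CHR element.

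Windows of 300 bases (250 before to 50 after the start) were held in RefSeq for 31 of the 37 members. The E2F motif (TTTCCCGC, TTTCGCGC, TTTGCCGC or TTTGGCGC, both strands) was in 6 of 13 S-phase members, 46.2%, and in 1 of 17 mitotic members, 5.88%, against 2.6% of 27025 genes. The CHR element (TTTGAA or TTCGAA, both strands) showed the opposite split, with 3 of 13 S-phase members, 23.1%, and 14 of 17 mitotic members, 82.4%, against 21.7% of all genes. A gene with more than 1 start was counted if any of its windows held the motif. CCAAT, also on both strands, was in 69.2% of S-phase and 94.1% of mitotic members against 41.1% of all genes. A match describes these letters in this window and is not a site of binding.

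By FPKM (the authors' length-scaled fragment values, which allow genes to be compared per length), Top2a, the topoisomerase that untangles sister chromatids, was the most abundant member on average over the 12 libraries. Pcna, Ube2c and Mcm7 followed, and Cdc6 was the least abundant. All values below are CPM, which compare 1 gene between libraries and not genes with each other.

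Mcm4 (ENSMUSG00000022673) lies at chr16:15623897-15637400 on the minus strand of GRCm38, Pcna (ENSMUSG00000027342) at chr2:132249162-132253314 on the minus strand, Gins1 (ENSMUSG00000027454) at chr2:150905400-150931280 on the plus strand, and Ccnd1 (ENSMUSG00000070348) at chr7:144929931-144939925 on the minus strand.

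The S-phase genes were lowest in the S2/3DKO embryoid bodies. Both S2/3DKO libraries of D4 lay below the other 10 libraries in 10 of 16 S-phase members (Mcm2, Mcm3, Mcm4, Mcm5, Mcm6, Mcm7, Gins1, Pcna, Rrm1 and Chek1) and in both G1 cyclins. The same held for 2 of 19 mitotic members, Ccna2 and Bub1b, and for 7.53% of the 18693 genes tested. The map of all members by library shows these low S-phase values side by side in the 2 columns of that group.

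**Figure D1:**
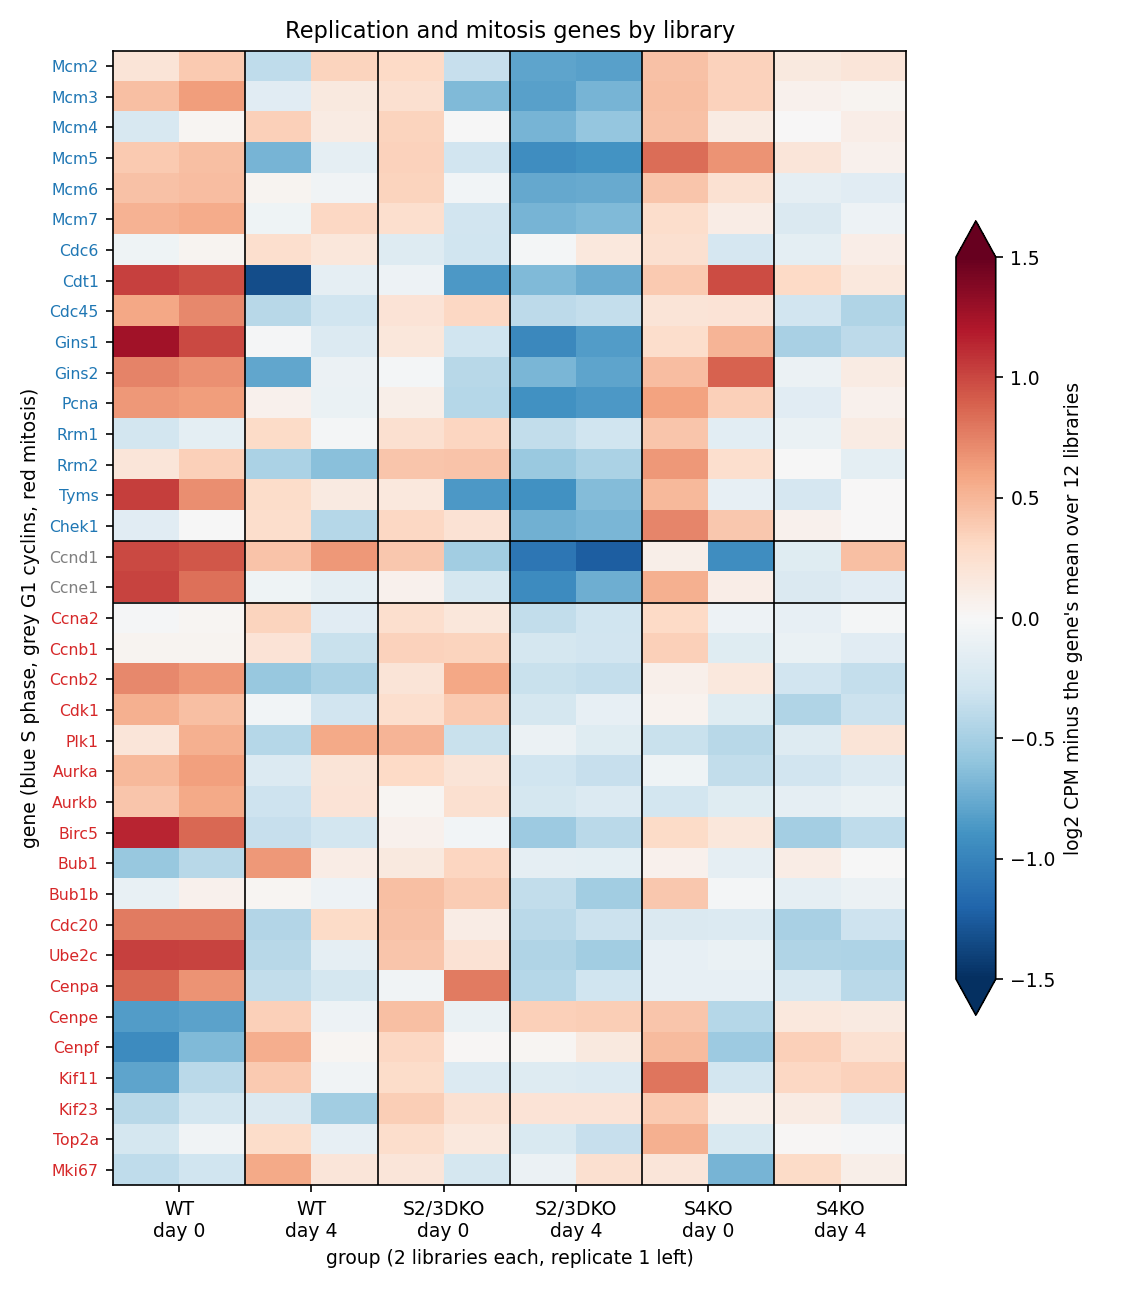
Each member's level in each of the 12 libraries, as log2 CPM minus the gene's mean over the libraries; members are in lines by class, libraries in columns by group. In the 2 S2/3DKO D4 columns, 10 of 16 S-phase members have their lowest values of the 12 libraries, against 2 of 19 mitotic members.

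All 6 genes of the MCM2-7 ring had their minimum there. Mcm6 was counted at 234 and 236 CPM in S2/3DKO D4, at 412 and 386 in WT D4, and at 365 and 355 in S4KO D4. At D0 the same gene was at 543 and 551 CPM in WT, 505 and 390 in S2/3DKO, and 534 and 470 in S4KO. The S2/3DKO values at D4 thus stood below every other library, and no 2 groups overlapped at D4.

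Mcm4 gave 199 and 214 CPM in S2/3DKO D4 against 412 and 351 in WT D4 and 324 and 344 in S4KO D4. At D0 it was at 272 and 328 CPM in WT, 404 and 321 in S2/3DKO and 434 and 351 in S4KO. WT D0 and S2/3DKO D0 therefore overlapped, and the D4 S2/3DKO libraries did not overlap any group. Mcm7 was at 282 and 291 CPM in S2/3DKO D4, 440 and 568 in WT D4 and 394 and 434 in S4KO D4, after 657 and 674 in WT, 545 and 376 in S2/3DKO and 553 and 496 in S4KO at D0. Again the S2/3DKO libraries of D4 were below all others.

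In edgeR's quasi-likelihood test 5 of 16 S-phase members were lower in S2/3DKO than in WT at D4 and none higher, where 8.0% of all genes tested were lower and 7.21% higher. They were Mcm4 (1.85-fold lower, log2 difference -0.89, SE 0.205, adjusted p = 0.015), Mcm6 (1.7-fold lower, SE 0.187 log2, adjusted p = 0.0192), Mcm7 (1.76-fold lower, SE 0.219, adjusted p = 0.0283), Pcna and Gins1. The other 3 MCM genes missed the threshold at -0.82 (Mcm2, SE 0.265), -0.76 (Mcm3, SE 0.263) and -0.52 (Mcm5, SE 0.246) on the log2 scale, with adjusted p of 0.0595, 0.0753 and 0.177. The median log2 difference was -0.71 over the S-phase members and -0.03 over all genes. The calls rest on both S2/3DKO libraries: without either of them none of the 37 members passed, and without WT D4 replicate 1 only 3 did. Fewer of all genes tested also passed without either S2/3DKO library or without WT D4 replicate 1. Without the WT D0 libraries in the fit 3 members passed.

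Pcna, the sliding clamp, was at 149 and 154 CPM in S2/3DKO D4, 292 and 261 in WT D4 and 249 and 293 in S4KO D4. At D0 it was at 437 and 430 CPM in WT, 298 and 208 in S2/3DKO and 424 and 358 in S4KO. It was 1.82-fold lower in S2/3DKO than in WT at D4 (SE 0.212 log2, adjusted p = 0.0191, edgeR), and the 2 groups did not overlap. Gins1, a GINS subunit, was at 17.9 and 19.6 CPM in S2/3DKO D4 against 34.4 and 30.4 in WT D4 and 25.03 and 26.6 in S4KO D4. The drop against WT was 1.73-fold (SE 0.229 log2, adjusted p = 0.0386). With the replicate number as a block the Gins1 call was lost.

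The plot of the MCM genes sets the 12 libraries beside each other. S2/3DKO D4 is the low group in each panel, and S4KO D4 stays near WT D4.

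**Figure D2:**
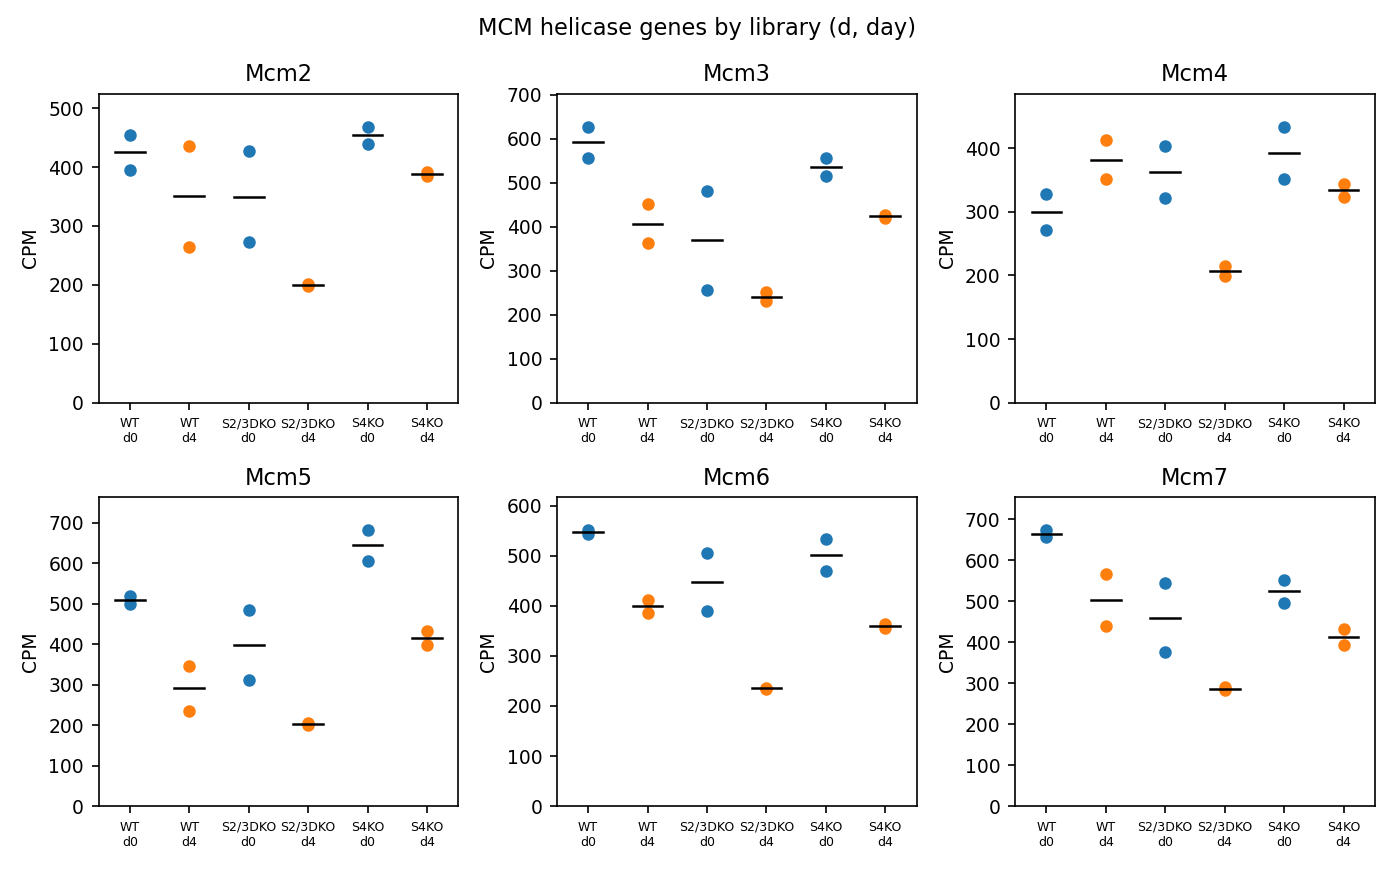
CPM of the MCM2-7 genes in every library, by group (d, day); points are single libraries and black lines the mean of 2. In all panels both S2/3DKO D4 points lie below the other 10 points, for Mcm6 at 234 and 236 CPM against 355 or more.

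S4KO embryoid bodies did not share the low levels. None of the 37 members passed between S4KO and WT at D4 (edgeR, 0 higher and 0 lower, against 0.679% and 1.05% of all genes). At an unadjusted p below 0.05 there were 2 members, both higher S-phase genes, and DESeq2 called 0. The SE of these 37 log2 differences ran from 0.179 to 0.365. Differences of several times the SE can miss the threshold, as that of Mcm2 did between S2/3DKO and WT at D4. The levels of S4KO and WT are therefore not shown to be equal. With the length and GC correction described below, Cdt1 (log2 difference 0.87, adjusted p = 0.0306) and Rrm2 (0.64, adjusted p = 0.0485) were higher in S4KO. Against S2/3DKO at D4, 4 S-phase members and Ccnd1 were higher in S4KO and no member lower, where 5.84% of all genes were higher and 6.45% lower.

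The gene with the largest difference of the 4 was Mcm5, at 434 and 397 CPM in S4KO D4 and 200 and 205 in S2/3DKO D4. It was 2.05-fold higher in S4KO (SE 0.248 log2, adjusted p = 0.0204). WT D4 was at 235 and 346 CPM, between the knockouts, and at D0 WT was at 499 and 519, S2/3DKO at 484 and 311 and S4KO at 682 and 606. Mcm2 was at 384 and 391 CPM in S4KO D4 and 201 and 197 in S2/3DKO D4, with WT D4 at 265 and 435. The 1.95-fold difference of Mcm2 had an adjusted p of 0.0366 (SE 0.266 log2). Pcna was 1.79-fold higher (adjusted p = 0.0256) and Mcm4 1.62-fold (adjusted p = 0.0483). Leaving out any 1 of the 4 libraries ended all 5 calls, and a fit with no WT D0 libraries kept 1.

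A correction of each library's trend with transcript length and GC content gave more calls at D4 and the same directions. S2/3DKO was lower than WT in 8 of 16 S-phase members and higher in none (all genes: 13.2% lower, 11.6% higher), and in 5 of 6 MCM genes. S4KO was higher than S2/3DKO in 12 of 16 S-phase members and both G1 cyclins, and lower in no member (all genes: 13.0% higher, 9.74% lower). Of the MCM genes all 6 were called there.

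Other replication genes, 52 from a list of general knowledge, gave calls in the same direction. At D4, 7 of 52 were lower in S2/3DKO than in WT and none higher, against 8.0% and 7.21% of all genes. Between S4KO and S2/3DKO 11 of 52 were higher in S4KO and none lower, against 5.84% and 6.45%. Dut, which clears dUTP, averaged 52.4 CPM in S2/3DKO D4 against 190 in WT D4 and 167 in S4KO D4 (3.63-fold lower than WT, adjusted p = 0.000566, edgeR). Rfc3, of the clamp loader, averaged 29.7 CPM against 56.5 in WT D4 (1.91-fold lower, adjusted p = 0.00982). Without either S2/3DKO library 1 of the 52 was still called against WT, and without WT D4 replicate 1 there were 2. Against S4KO the 11 calls fell to between 1 and 3 when any 1 of the 4 libraries was left out, and to 4 in a fit with no WT D0 libraries.

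Mitotic members changed less at D4. No mitotic member passed between S2/3DKO and WT (edgeR), with 1 higher and 1 lower at an unadjusted p below 0.05 and 1 called higher by DESeq2. None passed between S4KO and S2/3DKO, also at the unadjusted threshold and in DESeq2. The largest difference between S2/3DKO and WT was that of Kif23, a kinesin of the central spindle, at 215 and 216 CPM against 161 and 130 (log2 difference 0.57, SE 0.201, adjusted p = 0.0812). Bub1, a spindle checkpoint kinase, was at 236 and 233 CPM against 406 and 280 (log2 difference -0.55, SE 0.209, adjusted p = 0.1). After the length and GC correction Kif23 was called higher and Cdc20 lower.

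The median log2 difference of the 19 mitotic members was -0.24 between S2/3DKO and WT and 0.11 between S4KO and S2/3DKO, against -0.71 and 0.67 for the S-phase members. Cdk1 was at 199 and 220 CPM in S2/3DKO D4, 232 and 197 in WT D4 and 175 and 192 in S4KO D4. Ccnb2, cyclin B2, was at 131 and 129, 111 and 119, and 135 and 130 CPM in the same order. Of 55 other mitotic genes, 2 were lower in S2/3DKO than in WT at D4 (Pttg1, securin, and Fbxo5, an inhibitor of the anaphase-promoting complex) and none higher, fewer than the 8.0% and 7.21% of all genes would give. Neither passed without either S2/3DKO library or without WT D4 replicate 1.

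Mki67 and Top2a, often read as markers of proliferation, passed in none of the 11 comparisons. Mki67 was at 584 and 447 CPM in WT D4, 370 and 464 in S2/3DKO D4 and 482 and 418 in S4KO D4, so the 3 groups overlapped, after 302 and 320, 448 and 329, and 447 and 242 at D0. Top2a was at 1186 and 899 CPM in WT D4, 836 and 772 in S2/3DKO D4 and 994 and 963 in S4KO D4, with S2/3DKO below both others. The other members that passed in no comparison were Mcm3, Cdc6, Rrm1, Ccna2 and Ccnb1 (cyclins A2 and B1), Plk1 (a Polo kinase) and Kif11 (the spindle kinesin Eg5), 9 of 37 in all. Plk1 ranged from 105 to 209 CPM within WT D4 alone, which spans the 12 libraries.

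The mean log2 CPM of the S-phase members minus that of the mitotic members puts the 2 classes on 1 scale. At D4 it was -0.775 and -0.743 in S2/3DKO, -0.487 and -0.302 in WT and -0.275 and -0.221 in S4KO. S2/3DKO was lowest, and the groups of WT and S4KO lay above it without overlap. At D0 the values were -0.391 and -0.699 in S2/3DKO, 0.01 and -0.024 in WT and -0.024 and 0.192 in S4KO, so S2/3DKO was the lowest group on both days. The libraries of S2/3DKO D0 lay apart, and the lower was replicate 2, the one with the high mitochondrial share. The difference from WT was -0.365 at D4 and -0.538 at D0. With the median over members in place of the mean it was -0.309 and -0.223. By the mean, S4KO exceeded S2/3DKO by 0.511 at D4 and 0.629 at D0. No test was made of this score, since its members were chosen.

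**Figure D3:**
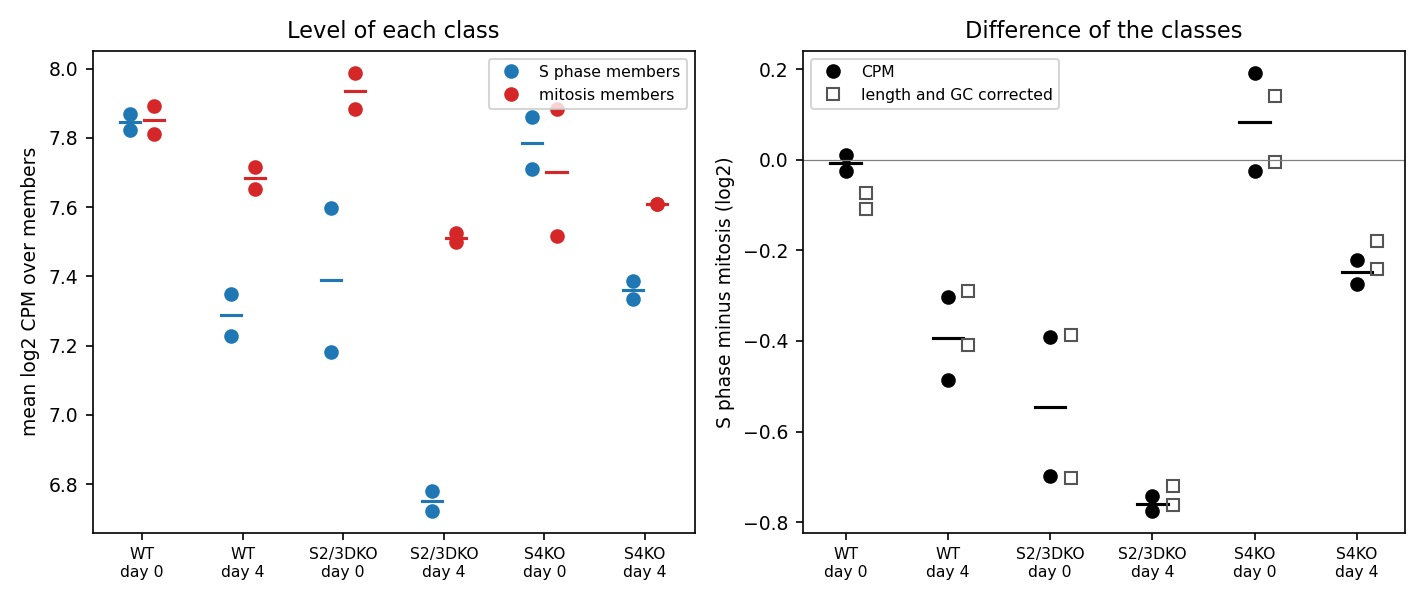
Left, the mean log2 CPM of the 16 S-phase members (blue) and the 19 mitotic members (red) in each library, with lines at the mean of 2; right, their difference in CPM and after the length and GC correction. The S-phase mean of S2/3DKO D4 is the lowest at 6.75, against 7.29 in WT D4 and 7.36 in S4KO D4, while the mitotic means are 7.51, 7.68 and 7.61.

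Trophoblast markers were highest in S2/3DKO D4, but did not follow the S-phase levels in every group. In WT their sum fell from 78.1 and 81.8 CPM at D0, and the S-phase mean fell too, from 7.85 to 7.29. The trophoblast sum over 10 genes was 583 and 600 CPM in S2/3DKO D4 against 34.9 and 49.5 in WT D4 and 110 and 80.5 in S4KO D4. Of the 10, 9 were higher in S2/3DKO than in WT, led by Krt7 at 197 CPM in both libraries, while Prl3d1 and Prl2c2 were at 0 in WT and S4KO. Mesoderm markers (7) went the other way, at 8.17 and 4.29 CPM in S2/3DKO D4 and 166 and 186 in WT D4, but were also low in S4KO D4 at 6.47 and 15.6. Extraembryonic endoderm markers (12) were at 190 and 126 CPM in S2/3DKO D4, 1030 and 905 in WT D4 and 37.3 and 74.7 in S4KO D4. The pluripotency sum was also lowest in S2/3DKO D4, where 2 of 8 markers were lower than in WT and 3 of 8 lower than in S4KO. The part of these cell types in the S-phase levels was not tested.

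Both G1 cyclins were lowest in S2/3DKO D4. Ccnd1, cyclin D1, was at 28.9 and 26.1 CPM there, at 82.1 and 96.4 in WT D4 and at 54.0 and 83.9 in S4KO D4. At D0 it was at 122 and 117 CPM in WT, 80.8 and 42.7 in S2/3DKO and 65.0 and 32.2 in S4KO, with the knockouts overlapping each other and not WT. It was 3.25-fold lower in S2/3DKO than in WT at D4 (SE 0.372 log2, adjusted p = 0.0116, edgeR) and 2.51-fold higher in S4KO than in S2/3DKO (SE 0.369, adjusted p = 0.038).

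Ccne1, cyclin E1, was at 66.1 and 76.2 CPM in S2/3DKO D4, 121 and 115 in WT D4 and 109 and 112 in S4KO D4. S2/3DKO again lay below both other genotypes. It was 1.66-fold lower in S2/3DKO than in WT (SE 0.209 log2, adjusted p = 0.0371). Without either S2/3DKO library at D4 both cyclins missed the threshold, and Ccne1 also did with RLE scaling.

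CDK inhibitors, which hold cyclin kinases back, were higher in S2/3DKO than in WT at D4 in 4 of 7 and lower in none (all genes: 7.21% higher, 8.0% lower). Cdkn1c (p57) was at 60.8 and 51.2 CPM in S2/3DKO D4 against 9.86 and 18.0 in WT D4 and 15.5 and 20.96 in S4KO D4, and it is a gene that trophoblast also expresses. The rise against WT was 4.02-fold (SE 0.318 log2, adjusted p = 0.00228, edgeR). Cdkn1a (p21) was at 120 and 110 CPM against 44.7 and 62.3 in WT D4 and 68.9 and 70.9 in S4KO D4, 2.15-fold above WT (SE 0.328 log2, adjusted p = 0.0427).

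Cdkn2d rose 2.17-fold (adjusted p = 0.0472), at 14.4 and 14.8 CPM against 4.79 and 8.66, and Cdkn2c was called at levels of 2.02 CPM or less. Cdkn1b (p27) was at 70.5 and 66.8 CPM against 79.8 and 57.2, overlapping. Only Cdkn1c stayed called against WT in each fit that left out 1 library. S4KO was lower than S2/3DKO in Cdkn1c (3.08-fold, adjusted p = 0.00757) and in no other inhibitor.

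Among 22 further G1 regulators, 2 were higher and 2 lower in S2/3DKO than in WT at D4, shares near those of all genes (7.21% and 8.0%). Cdk6, a cyclin D kinase, was at 3.72 and 3.13 CPM in S2/3DKO D4 against 37.6 and 31.6 in WT D4 and 24.4 and 35.5 in S4KO D4. It was 10.1-fold lower than in WT (SE 0.367 log2, adjusted p = 0.000296) and 8.73-fold lower than in S4KO (adjusted p = 0.000556), the largest difference in the list. Mycn was 3.15-fold lower than in WT (44.8 and 30.1 against 96.3 and 140 CPM, adjusted p = 0.0423).

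Ccnd3, cyclin D3, was 3.24-fold higher, at 234 CPM in both S2/3DKO libraries against 43.3 and 101 in WT D4 (adjusted p = 0.0134). Rb1 was 2.18-fold higher (adjusted p = 0.0221), at 97.3 and 91.8 CPM against 53.7 and 33.2 in WT D4. In S4KO D4 Rb1 was at 92.7 and 76.3 CPM, so its level there was near that of S2/3DKO. Without either S2/3DKO library the calls of Ccnd3, Rb1 and Mycn against WT were lost and that of Cdk6 was kept. Ccnd3 also missed the threshold without WT D4 replicate 1, and Rb1 without WT D4 replicate 2. Mycn missed it without either WT D4 library and in the fit with no WT D0 libraries. Ccnd2 was at 17.9 and 17.1 against 19.8 and 17.1 CPM. Between S4KO and S2/3DKO at D4, Cdk6, E2f4 and Tfdp1 of the 22 were higher in S4KO, and E2f2 and Myc lower (all genes: 5.84% higher, 6.45% lower). Without either S2/3DKO library only Cdk6 of these 5 was called. E2f4 averaged 242 CPM in S4KO D4, 91.4 in S2/3DKO D4 and 145 in WT D4 (S4KO against S2/3DKO 2.65-fold, adjusted p = 0.00624).

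**Figure D4:**
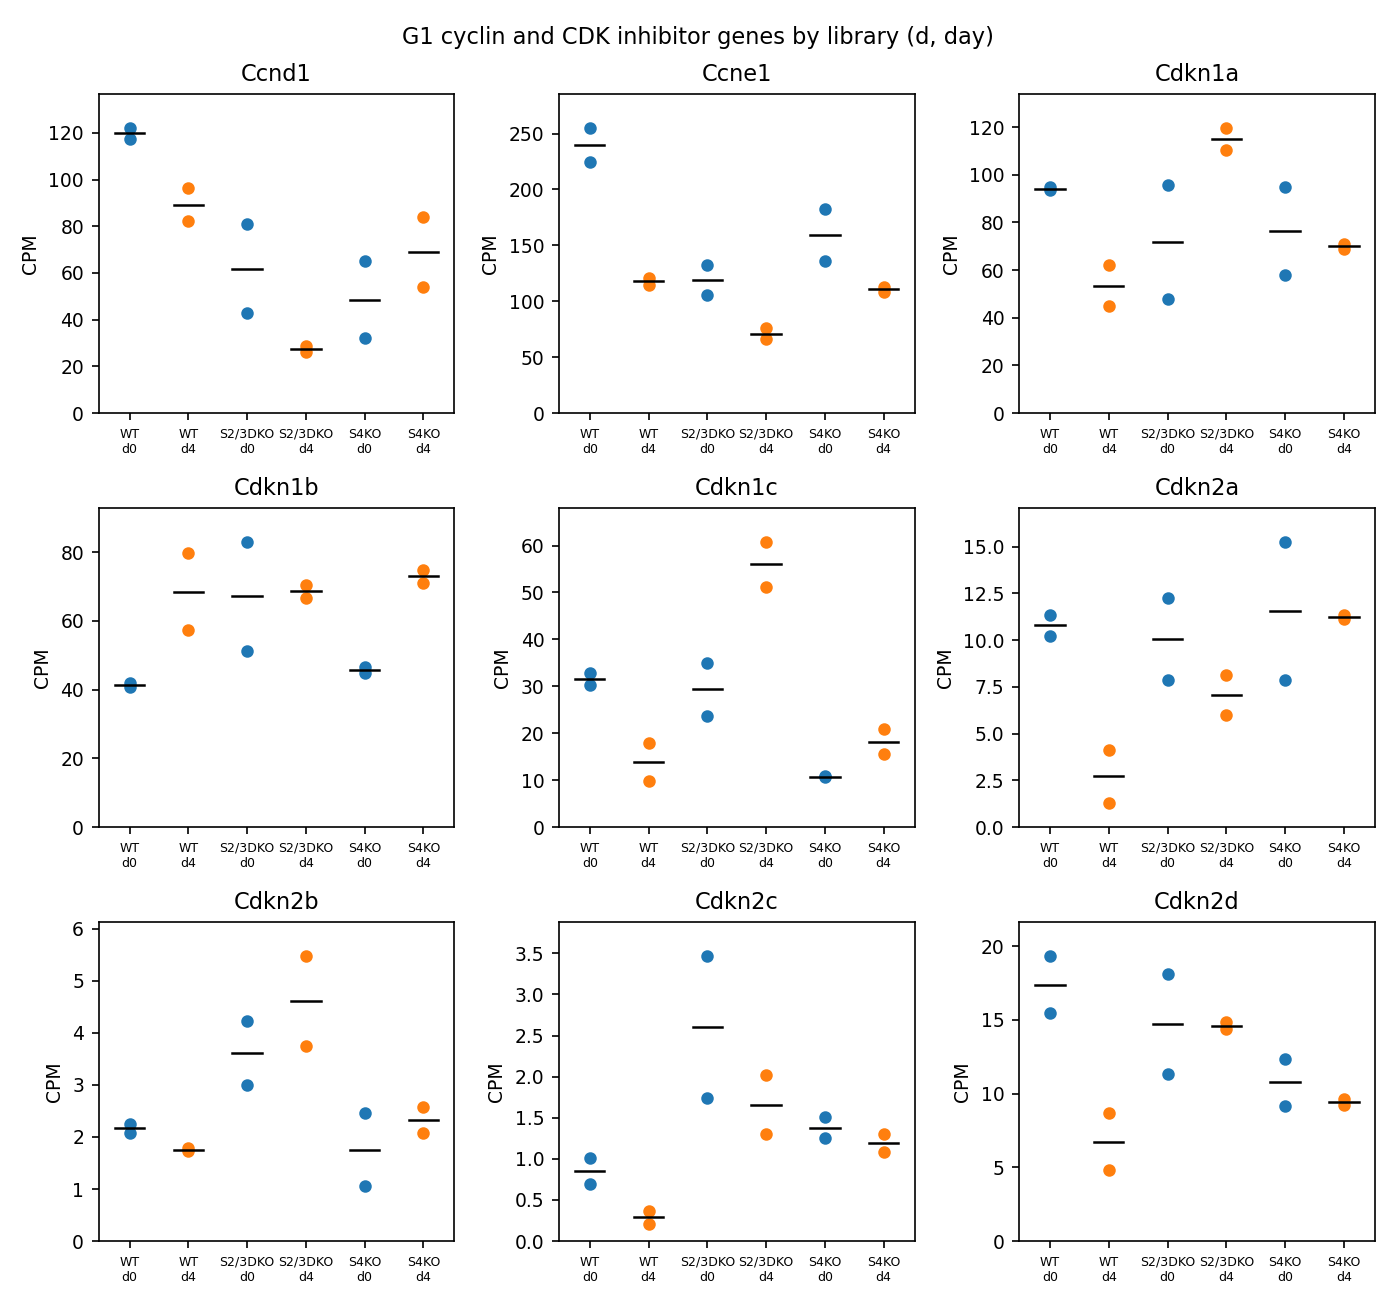
CPM of the G1 cyclins Ccnd1 and Ccne1 and of the 7 CDK inhibitors in every library, by group (d, day); points are single libraries and black lines the mean of 2. Ccnd1 and Ccne1 are lowest in S2/3DKO D4, while Cdkn1a (120 and 110 CPM) and Cdkn1c (60.8 and 51.2 CPM) are highest there.

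All S-phase members called from D0 to D4 were lower at D4, in numbers that differed by genotype. In S4KO Gins1 was the only S-phase call, and it was lost when any library was left out. In WT 7 of 16 fell (Mcm5, Cdt1, Cdc45, Gins1, Gins2, Pcna and Rrm2), where 19.9% of all genes fell and 23.8% rose. The licensing factor Cdt1 went from 328 and 317 CPM to 64.2 and 147, a 3.05-fold drop (SE 0.371 log2, adjusted p = 0.00549, edgeR). Gins1 dropped 2.37-fold from 84.0 and 69.7 to 34.4 and 30.4 CPM (adjusted p = 0.00177), and Cdc45 2-fold from 91.6 and 101 to 46.1 and 50 (adjusted p = 0.00165). Ccne1 fell 2.04-fold, from 255 and 225 to 121 and 115 CPM (adjusted p = 0.003).

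Mcm4, Rrm1, Cdc6 and Chek1 were higher at D4 in WT without passing the test. Rrm1, the large subunit of ribonucleotide reductase, was at 208 and 229 CPM at D0 and 307 and 248 at D4. Its partner Rrm2 fell 1.77-fold, from 298 and 339 to 190 and 170 CPM (adjusted p = 0.0062). The counts of the 2 subunits thus went apart in WT, but Rrm1 was at -0.92 on the log2 scale after the length and GC correction described below.

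In S2/3DKO 6 of 16 S-phase members fell (Mcm4, Mcm5, Mcm6, Gins1, Rrm2 and Chek1) against 3.46% of all genes that fell and 3.57% that rose. Mcm6 dropped 1.9-fold (SE 0.187 log2, adjusted p = 0.0189) and Rrm2 1.92-fold, from 352 and 355 to 179 and 189 CPM (adjusted p = 0.02). Chek1, the replication checkpoint kinase, went from 96.2 and 90.4 to 47.3 and 48.3 CPM (1.95-fold, adjusted p = 0.0364). Over all genes tested, far fewer were called when either D4 library of S2/3DKO was left out. Without either D4 library of S2/3DKO no member passed, without D0 replicate 1 there was 1, and a fit with no WT D0 libraries kept 3.

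In S4KO 1 S-phase member, Gins1, and 1 mitotic member, Birc5, fell, and none rose, against 3.81% of all genes that fell and 5.08% that rose. Gins1 went from 41.9 and 49.9 to 25.03 and 26.6 CPM (1.78-fold, adjusted p = 0.0449). Both calls were lost when any 1 of the 4 libraries was left out and under the replicate block. The Gins1 call was also lost under the length and GC correction. The median S-phase log2 change was -0.59 in WT, -0.71 in S2/3DKO and -0.48 in S4KO.

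Mitotic members moved both ways in WT. Those that fell were Ccnb2, Cdk1, Aurka, Birc5, Cdc20, Ube2c and Cenpa, and those that rose Bub1, Cenpe and Cenpf. Over all genes 19.9% fell and 23.8% rose, so the share of mitotic members that rose was below that of all genes. Ube2c, the ubiquitin-conjugating enzyme of the anaphase-promoting complex, went from 321 and 318 to 118 and 144 CPM (2.44-fold, SE 0.182 log2, adjusted p = 0.000494). Birc5 (survivin) went from 283 and 233 to 101 and 106 CPM (2.5-fold, adjusted p = 0.000471). Cenpf, a large kinetochore protein, rose from 111 and 134 to 310 and 217 CPM (2.15-fold, SE 0.307 log2, adjusted p = 0.0137), and Cenpe, a kinetochore motor, from 76.8 and 79.0 to 177 and 131 (1.97-fold, adjusted p = 0.0167). In WT 18 members were called in all, and 10 when WT D0 replicate 1 was left out.

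In S2/3DKO 3 mitotic members fell (Ccnb2, Bub1b and Ube2c) and none rose (all genes: 3.46% fell, 3.57% rose). Ube2c went from 210 and 184 to 116 and 110 CPM (1.74-fold, adjusted p = 0.0266), close to the 118 and 144 CPM of WT D4 and the 115 and 114 of S4KO D4. Bub1b, a spindle checkpoint protein, fell from 370 and 351 to 210 and 189 CPM (1.81-fold, adjusted p = 0.0279).

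The direction of the mitotic changes in WT followed transcript length. Length was read from the ratio of CPM to FPKM in the 2 deposited tables. All 7 mitotic members under 2000 bases were lower at D4 in WT (6 called), and all 5 over 4000 bases were higher (2 called). Over the 37 members the log2 change in WT correlated with log2 length at r = 0.80 (Spearman 0.77), against 0.34 over 18130 genes, as a description across genes that share the same 4 libraries. Within the mitotic members r was 0.90 and within the S-phase members 0.62.

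The relation was also present in both D0 comparisons that use the WT D0 libraries and, with a lower r, in the knockouts over time. Taken over all 37 members, it was not seen between the knockouts at D0 or between genotypes at D4. Within the mitotic members r was 0.39 (Spearman 0.51) for S4KO against S2/3DKO at D0 and 0.18 (Spearman 0.37) at D4. For S2/3DKO and S4KO against WT at D4 it was -0.06 and 0.11 (Spearman -0.26 and 0.11). Over the 37 members r was 0.62 for S2/3DKO against WT and 0.70 for S4KO against WT at D0, 0.05 for S4KO against S2/3DKO at D0, 0.49 and 0.52 for D4 against D0 in S2/3DKO and S4KO, and -0.03 for S2/3DKO against WT and 0.05 for S4KO against S2/3DKO at D4. The length and GC correction took the merged exon length of the gene annotation and not the implied length. With it r in WT fell to 0.38, Cenpe and Cenpf turned to -0.16 and -0.30 on the log2 scale, and no mitotic member rose. The median over all genes moved from 0.08 to -0.11 under that correction. In WT it called 12 S-phase and 8 mitotic members lower and none higher, against 25.9% of all genes lower and 17.5% higher. A correction with the implied length instead left r in WT at -0.16 over the 37 members and -0.28 within the mitotic members.

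**Figure D5:**
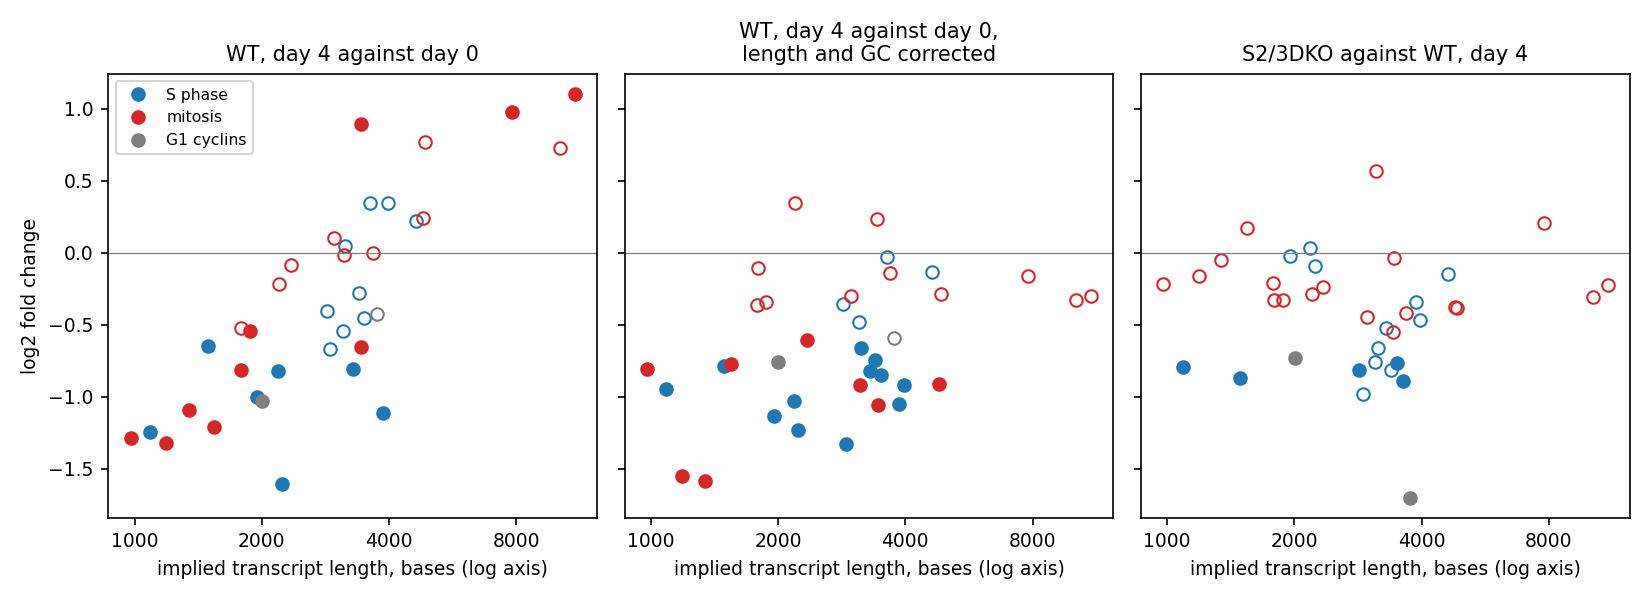
Log2 fold change of each member against the transcript length implied by the 2 tables (log axis, bases), in WT from D0 to D4 before (left) and after (centre) the length and GC correction, and for S2/3DKO against WT at D4 (right); filled points have an adjusted p below 0.05 and open points do not. Short genes lie low and long genes high in the left panel (r = 0.80), and no slope is seen in the right one (r = -0.03).

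In the knockouts the corrected counts were larger in the same direction as the uncorrected ones. S2/3DKO had 12 S-phase and 11 mitotic members lower at D4 and none higher (all genes: 9.90% lower, 6.17% higher). S4KO had 6 and 3 lower and none higher (all genes: 10.4% lower, 7.09% higher). Every S-phase member called from D0 to D4 was thus lower at D4, under both scalings and in each genotype, while the rise of long mitotic genes in WT was not kept.

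At D0 5 of 16 S-phase members were lower in S2/3DKO than in WT and none higher (all genes: 14.4% lower, 16.7% higher). Gins1 was at 39.4 and 28.3 CPM against 84.0 and 69.7 in WT, 2.27-fold lower (SE 0.23 log2, adjusted p = 0.0047, edgeR). Tyms, thymidylate synthase, was at 68.1 and 33.5 against 126 and 98.9 CPM (2.21-fold lower, adjusted p = 0.0219), and Cdt1 at 153 and 88.9 against 328 and 317 (2.66-fold lower, adjusted p = 0.0156). Gins2 and Pcna were also lower. Ccne1 was 2.01-fold lower, at 133 and 106 against 255 and 225 CPM (adjusted p = 0.00617). In none of these genes did the groups overlap. Markers of other cell types also differed between these groups. The trophoblast sum was at 239 and 227 CPM in S2/3DKO D0 against 78.1 and 81.8 in WT, with 7 of 10 markers higher, and the extraembryonic endoderm sum at 25.7 and 44.0 against 6.71 and 8.41, with 6 of 12 higher. Pluripotency markers were lower in 3 of 8. Their part was not tested.

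Of the 19 mitotic members Bub1, Cenpe, Cenpf and Kif23 were higher in S2/3DKO than in WT at D0, and Birc5 and Ube2c lower. These shares were near those of all genes (16.7% higher, 14.4% lower). Bub1, Cenpe, Cenpf, Kif23 and Ube2c lost the call under the length and GC correction. There 2 mitotic and 7 S-phase members were lower and none higher (all genes: 19.2% lower, 14.3% higher). Of the 12 members called, none passed without WT D0 replicate 1, and 4 passed without WT D0 replicate 2 or without S2/3DKO D0 replicate 2.

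In S4KO at D0 7 mitotic members were lower than in WT (Ccnb2, Aurka, Aurkb, Birc5, Cdc20, Ube2c and Cenpa), with Gins1 and Ccnd1, and no member was higher (all genes: 9.14% lower, 10.5% higher). Ube2c was at 145 and 147 CPM against 321 and 318 in WT (2.19-fold lower, SE 0.181 log2, adjusted p = 0.00693). Cdc20, an activator of the anaphase-promoting complex, was at 197 and 198 against 392 and 391 CPM (1.99-fold lower, adjusted p = 0.0184), and Aurka at 116 and 94.8 against 171 and 186 (1.69-fold lower, adjusted p = 0.0245). These groups did not overlap. Without WT D0 replicate 1 or S4KO D0 replicate 1 none of the 9 passed, without WT D0 replicate 2 there were 2 and without S4KO D0 replicate 2 there were 5. In the fits without WT D0 replicate 1 or S4KO D0 replicate 1, far fewer of all genes tested passed as well. With the length and GC correction 2 S-phase and 5 mitotic members were lower (all genes: 10.3% lower, 8.70% higher). The 7 mitotic members called are those with an implied length under 2000 bases. Within the mitotic members the log2 difference correlated with log2 length at r = 0.83 (Spearman 0.87). A correction with the implied length called 3 members, and 1 of these was among the 9.

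Both D0 comparisons and the WT time course share the WT D0 libraries. Those libraries were the highest of the 12 in 6 of 16 S-phase members, 7 of 19 mitotic members and both G1 cyclins, against 17.3% of all genes, and the lowest in 4 mitotic members (Bub1, Cenpe, Cenpf and Kif11), against 15.7% of all genes.

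Between the knockouts at D0 no member passed in edgeR (all genes: 2.15% higher in S4KO, 3.38% lower). At an unadjusted p below 0.05 there were 4 higher and 3 lower members, and DESeq2 called 2 higher. Gins2 came nearest, at 107 and 144 CPM in S4KO against 75.8 and 58.0 in S2/3DKO (log2 difference 0.90, SE 0.26, adjusted p = 0.068).

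The change from D0 to D4 itself differed between S2/3DKO and WT in 2 members, both lower in S2/3DKO, a share near that of all genes (4.26% lower, 1.83% higher). They were Mcm4, up by a log2 value of 0.35 in WT without passing and down by 0.81 in S2/3DKO, and Bub1, which rose by 0.90 in WT and was at -0.38 without passing in S2/3DKO. Over the 37 members this difference also followed transcript length, at r = -0.66. Of the 8 fits that left out 1 library of these groups, the Mcm4 call was lost in 6 and the Bub1 call in 7. For S4KO against WT no member's change differed (edgeR, all genes: 0.0107% higher, 0.139% lower). At an unadjusted p below 0.05 there were 4 higher and 2 lower members there, and DESeq2 called 2 higher.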

How the data were processed

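RNA was sequenced from 12 libraries, TruSeq v2, 500 ng of RNA each, per the labels' protocols, and grouped by genotype and day from their titles. The first table holds whole-number counts per Ensembl gene ID that the authors deposited, with no normalization recorded. The second holds FPKM values that the authors deposited, 1 line per symbol. The submitters' processing notes list the build mm10 and the programs StringTie, Cufflinks and DESeq2, with neither version nor role. Aligner, annotation and strand setting are not given in the sources used here, so reads of overlapping or antisense genes cannot be told apart. GENCODE M21 gave a symbol for 32235 of the 32285 gene IDs.

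Counts were fitted with edgeR 4.0.16 in R 4.3.3 (quasi-likelihood, TMM, filterByExpr), with 1 coefficient for each of the 6 groups. The filter left 18693 genes. Genes were called at a Benjamini-Hochberg adjusted p below 0.05 over all of them. The common biological coefficient of variation was 0.286. CPM are TMM scaled, and standard errors are on the log2 scale. There were 11 comparisons, and the fit was tested on simulated data. Values are means over 2 libraries, or single libraries. The 31566376 to 55806858 counts per library leave little counting error for the members, so the number of libraries limits the precision.

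Alternatives were DESeq2 1.42.0, limma 3.58.1 on log2(FPKM + 1) and log2(FPKM + 0.1), RLE scaling, other filters, a least log2 change of 1, fits of the compared groups alone, a replicate block, a length and GC correction (spline offsets, 18682 genes) and leaving out each library. The length and GC correction used merged exon lengths from GENCODE M21. A correction with the length implied by the 2 tables and a fit with no WT D0 libraries were added after seeing the data. Replicate numbers did not pair the libraries: deviations of same-numbered libraries correlated at -0.147 to 0.339.

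All 37 members are reported. From the wider lists a gene could be named if called, free of overlap, at 5 CPM or more in the higher group and among the 3 largest changes in its direction; CDK inhibitors and G1 regulators could all be named. The members and lists were chosen with earlier results of these data known. Promoters came from RefSeq (GRCm38.p6).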

Additional observations from a re-analysis of the deposited data

Results flagged for a closer look

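The change from D0 to D4 differed between S2/3DKO and WT, by an interaction test in edgeR, for 2 of the 37 members. This share was near that of all genes (4.26% lower, 1.83% higher). Over the 37 members the difference correlated with log2 length at r = -0.66, and within the mitotic members at r = -0.81. With the implied length 0 members were called. Mcm4 had a difference of -1.16 on the log2 scale (SE 0.289, adjusted p = 0.0428). Its level went from 272 and 328 to 412 and 351 CPM in WT and from 404 and 321 to 199 and 214 in S2/3DKO. Bub1 had a difference of -1.27 (SE 0.297, adjusted p = 0.0361), with 175 and 194 to 406 and 280 CPM in WT and 287 and 322 to 236 and 233 in S2/3DKO. Under the length and GC correction the differences were -0.84 (adjusted p = 0.0555) for Mcm4 and -0.68 (adjusted p = 0.0496) for Bub1. Both calls were lost without either WT D0 library, either S2/3DKO D4 library, S2/3DKO D0 replicate 1 or WT D4 replicate 1. Bub1 was also lost without S2/3DKO D0 replicate 2, and Mcm4 with the replicate block.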

How the results depend on the processing

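The 20 summary values (11 counts of called members and 9 differences of the S-phase minus mitosis score) had 271 alternatives, of which 190 stayed close to the value reported and 81 moved. Over the fits that left out 1 library the count of calls ranged from 10 to 19 for WT D4 against D0 (18 reported), 0 to 11 for S2/3DKO D4 against D0 (9), 0 to 0 for S4KO D4 against D0 (2), 0 to 12 for S2/3DKO against WT at D0 (12), 0 to 5 for S4KO against WT at D0 (9), 0 to 9 for S2/3DKO and 0 to 0 for S4KO against WT at D4 (7 and 0), 0 to 4 between the knockouts at D0 (0), 0 to 0 between them at D4 (5), 0 to 8 for the difference of the day response in S2/3DKO (2) and 0 to 4 in S4KO (0). A lone library was assumed to vary like the other groups. In most of the fits that left out 1 library, fewer of all genes tested passed as well. A lost call therefore need not be particular to the members.

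A least log2 change of 1 left 10, 0, 0, 5, 2, 1 and 2 members for WT, S2/3DKO and S4KO over time, S2/3DKO and S4KO against WT at D0, S2/3DKO against WT at D4 and S4KO against S2/3DKO at D4. DESeq2 called 17 over time in S2/3DKO, 15 for S4KO against WT at D0, 2 and 8 between the knockouts at D0 and D4, and 6 and 2 for the day response in S2/3DKO and S4KO. The length and GC correction gave 25 and 9 over time in S2/3DKO and S4KO, 12 and 2 for S2/3DKO and S4KO against WT at D4, and 4 and 14 between the knockouts at D0 and D4. With the implied length these 6 were 22, 6, 15, 2, 3 and 14, with 3 for S4KO against WT at D0 and 0 for the S2/3DKO day response. The fit with no WT D0 libraries gave 3, 0, 3 and 1 for S2/3DKO and S4KO over time, S2/3DKO against WT at D4 and the knockouts at D4. Fits of the compared groups alone gave 5, 0, 4 and 15 for the same. With no filter 1 member was called over time in S4KO, 2 between the knockouts at D0 and 4 for the S2/3DKO day response. limma with no filter gave 4 for S4KO against WT at D0 and 2 between the knockouts at D4, and limma at either pseudocount 5 for the S2/3DKO day response. These causes were not tested.

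The replicate numbers did not pair the libraries. With the replicate block 0 members were called over time in S4KO and 1 for the S2/3DKO day response, and the other counts stayed within 1.5 times. Taking the median over members in place of the mean moved the S-phase minus mitosis difference to -0.154 in WT over time, -0.223 for S2/3DKO and 0.422 for S4KO against WT at D0, 0.356 for S4KO against WT at D4 and 0.665 between the knockouts at D4.

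Of 7030 member values under alternatives 20 had the opposite sign to the value reported, with a call in at least 1 of the 2 fits. Of the genes concerned Cenpe, Cenpf and Ube2c were called as reported, and the others only under the alternative. In WT over time the implied length turned Cdc6 to -0.556, Rrm1 to -0.578, Chek1 to -0.73, Cenpe to -0.6, Cenpf to -0.632, Top2a to -0.905 and Mki67 to -0.807, and the length and GC correction Rrm1 to -0.916, Chek1 to -0.663, Cenpe to -0.163, Cenpf to -0.301 and Top2a to -0.908. Against WT at D0 the implied length turned Ube2c to 0.007, Cenpe to -0.003, Cenpf to -0.228 and Mki67 to -0.765 in S2/3DKO and Mki67 to -0.711 in S4KO. Cenpe, Cenpf and Ube2c were not called after turning, except Cenpe and Cenpf in WT over time with the implied length. Cdk1 in S2/3DKO against WT at D0 was at 1.58 with limma on log2(FPKM + 0.1) and 1.568 on log2(FPKM + 1), with and without the filter, so its FPKM values did not follow its counts. The alternatives with the implied length and with no WT D0 libraries were chosen after seeing the data.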
